A study of Mus musculus with 31 samples.

Results

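The medial prefrontal cortex (mPFC) of adult female C57BL/6J (C57) mice was compared between animals that had been repeatedly cross-fostered as pups (RCF) and controls. The members are the value columns titled C57_mpFC_RCF 1 to 4 and C57_mpFC_ctr 1 to 3, which are 7 of the 31 one-colour Agilent arrays of a study that also measured the nucleus accumbens (NAc) and a second strain, DBA2/J (DBA). In the RCF group the whole litter went to another dam each day from postnatal day 1 to day 4 and stayed with the adoptive mother reached last. In the control group the pups were lifted out daily over the same days and put back with their own mother, so both groups were handled.

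Both groups carried no transgene, were weaned on day 28 and are labelled 12 weeks old, whereas the protocol text gives an age from 9 weeks on. At most 2 animals came from a cage or litter. The labels do not say whether a sample is 1 animal, so p-values measure only a spread between samples. The model estimated that spread over all 8 groups of the series (27 samples after averaging), not over these 7 samples alone. RNA with an integrity number under 8.0 was discarded, and 200 ng was labelled with Cy3 for each array. The value given throughout is the log2 signal on the scale of the deposited value table, where every array has the same 75th percentile of 11.43. Differences are RCF minus control on that scale, with the standard error (SE) of the limma model. Levels are compared for 1 gene between samples, never between genes.

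The mPFC is a frontal region that regulates responses to stress and reward. Its projection neurons use glutamate and express transcription factors such as Tbr1 and Neurod2, and they are balanced by GABAergic interneurons and supported by astrocytes, oligodendrocytes and microglia. Unstable maternal care in the first days of life is used in rodents as a model of early adversity. Genes often examined after it include the glucocorticoid receptor and its regulators, neurotrophins, chromatin modifiers and genes induced by neuronal activity.

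All 7 arrays shared 1 slide and 1 scan, and between 63.5% and 80.2% of probes on each of them gave a signal well above background. RCF 1 and RCF 3 lay in slide column 3 and RCF 2 and RCF 4 in column 4, whereas control 1 and control 3 lay in column 1 and control 2 in column 2. Within these 7 arrays, slide column and treatment therefore cannot be told apart. The rows of the slide held both groups. Markers placed all 7 samples with female C57 mice. Their strain score (Gpnmb taken from the average of Gabra2 and Glo1, genes whose level differs between the strains) was 5.12 to 7.35 against a midpoint of 9.16 for all arrays, and their Xist level was 9.19 to 10.15 against a midpoint of 7.37.

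By a tissue score, 5 of the 7 samples lay on the side of their tissue label. The mean of 22 striatal markers minus that of 17 cortical markers was 2.96, -1.77, -0.35 and -0.50 in RCF 1 to RCF 4, and -1.89, -0.69 and 2.60 in control 1 to control 3. RCF 1 and control 3 thus lay past the midpoint of 0.776, on the side of the NAc, while the other 5 lay on the cortical side. Of these 5, RCF 2 and control 1 lay near the median of the mPFC arrays, -1.89. RCF 3, RCF 4 and control 2 lay between that median and the midpoint. Drd1, the dopamine receptor of striatal projection neurons, stood at 11.82, 7.99, 9.56 and 8.80 in RCF 1 to RCF 4, against 8.24, 9.30 and 11.84 in control 1 to control 3. Tbr1, a transcription factor of cortical projection neurons, stood at 11.82, 14.37, 14.51 and 14.25 in RCF 1 to RCF 4, against 14.24, 14.53 and 13.05 in control 1 to control 3. The 2 samples high in the striatal gene were those lowest in the cortical gene, 1 in each group. Adora2a, Ppp1r1b, Penk and Pdyn, further genes of striatal projection neurons, were highest in the same 2 samples, at 13.75, 15.95, 17.39 and 15.72 in RCF 1. Neurod2 ran likewise to Tbr1, at 10.55 in RCF 1, 11.91 in control 3 and 12.92 to 13.19 in the other 5. Fezf2 and Cux2, of deep and upper cortical layers, were low in RCF 4 as well, where Cux2 was at 7.36, against 8.69 in control 2.

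A second departure was seen in RCF 4. The mean of 12 genes known from the olfactory bulb, a list chosen after these values were seen, was 8.59, 8.62, 8.83 and 10.73 in RCF 1 to RCF 4, against 10.03, 8.93 and 8.90 in control 1 to control 3. Sp8, a transcription factor of interneurons born for the bulb, was at 12.15 in RCF 4, 10.14 in control 1 and 7.25 to 8.89 in the other 5 samples by its brighter probe. Vipr2, a receptor for vasoactive intestinal peptide, was at 10.77 in RCF 4, 8.71 in control 1 and 5.21 to 6.48 in the others. The first 2 principal components of the 7 samples held 43.1% and 33.9% of the variance. On the second, RCF 1 and control 3 lay at 1 end and RCF 4 at the other. The share of neighbouring tissue in each sample was not measured, so its part in the results below was not tested, and counts and the main genes are also given without these samples. In bulk tissue, fewer cells of a type and less RNA per cell cannot be told apart.

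**Figure D1:**
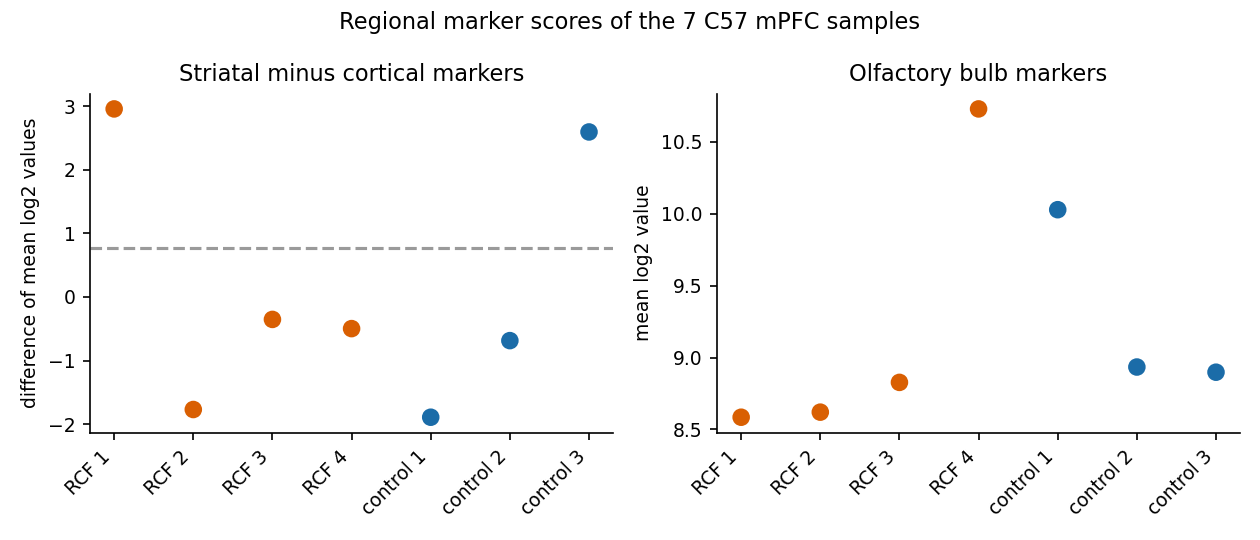
Regional marker scores of the 7 samples, RCF in orange and control in blue. The left panel shows the striatal minus cortical score (difference of mean log2 values, dashed line at the midpoint of 0.776), where RCF 1 at 2.96 and control 3 at 2.60 lie above the line; the right panel shows the mean log2 value of 12 olfactory bulb genes, highest in RCF 4 at 10.73 and next in control 1 at 10.03.

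The comparison asks which genes differ in the adult C57 mPFC after cross-fostering in the first days of life. Of 22469 features tested with limma, 0 (0%) passed an adjusted p of 0.05, and the smallest adjusted p was 0.473. At an unadjusted p under 0.05 there were 419 features (1.86%), 167 higher (0.743%) and 252 lower (1.12%) in RCF. Quantile normalization turned that split round, to 264 higher and 178 lower, with 0 past the adjusted threshold. Every RCF sample lay above every control sample in 233 features (1.04%) and below every control sample in 432 (1.92%). Leaving out control 2 alone gave 11 features past the adjusted threshold, 9 higher and 2 lower, and weighting the arrays by their spread gave 185, 63 higher and 122 lower. The median difference over all features was -0.035, and 41.5% of them were higher in RCF by value.

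Without RCF 1 and control 3, 0 of 22469 features (0%) passed and 371 (1.65%) had an unadjusted p under 0.05. Without RCF 1, RCF 4 and control 3, called the 3 samples in doubt below, 0 passed and 230 had an unadjusted p under 0.05. That set kept control 1, next highest in the olfactory bulb genes at 10.03. The median difference of those genes was -0.84 in it, against -0.069 with all samples, so the groups were less alike in these markers. Without RCF 1, control 2 and control 3, which leaves 1 control assumed to vary like the other groups, 3 passed. The median pooled SD of a feature was 0.249 with all 7 samples, 0.227 without RCF 1 and control 3, and 0.144 when RCF 4 was left out as well. With all samples, the median SE of a difference was 0.194, larger than the median absolute difference of 0.115. Fits with the tissue score, or the tissue and olfactory bulb scores, as covariates also gave 0 features past the threshold. The genes described below are therefore those with the smallest p in each direction, and none of them passed the adjusted threshold with all samples weighted alike. With array weights, which gave RCF 3 the most weight of the 7 samples and RCF 4 the least, 13 of the 24 genes passed, among them Plagl2, Azin1, Rnf41 and Dag1, and 7 of the 24 passed without control 2.

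**Figure D2:**
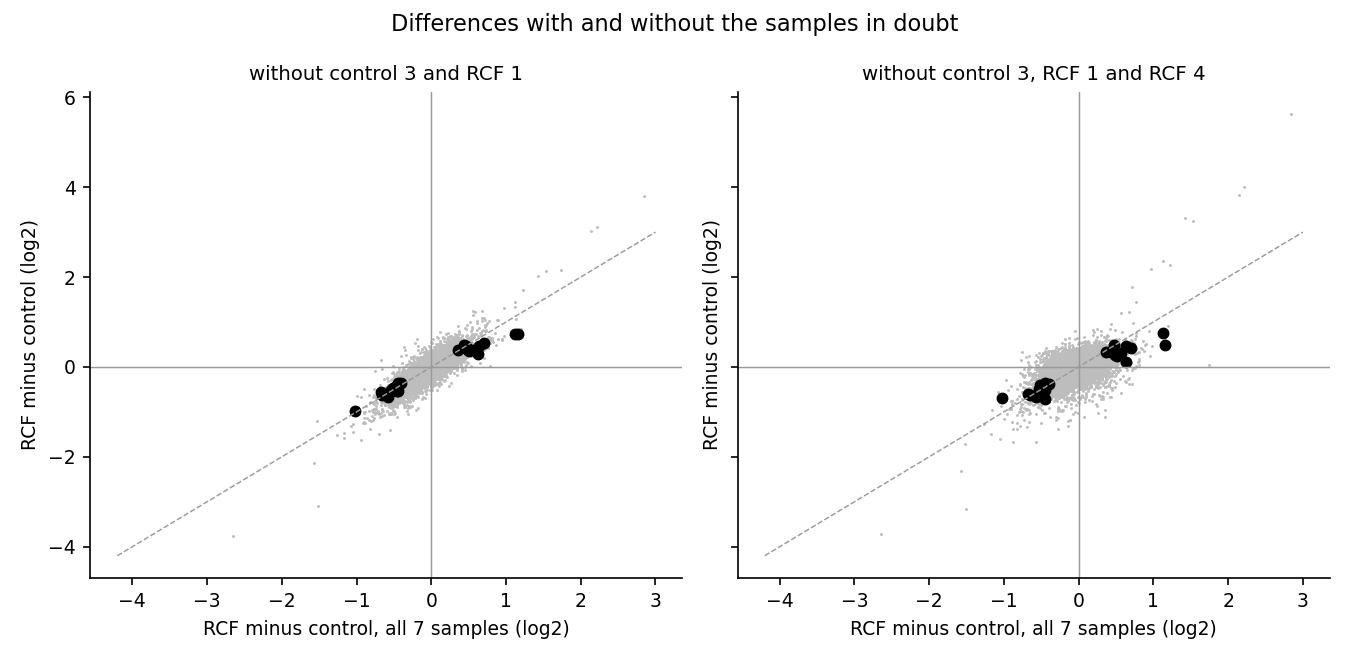
RCF minus control (log2) in all 7 samples (horizontal) against the same difference without RCF 1 and control 3 (left) or without RCF 1, RCF 4 and control 3 (right). Grey points are the 22469 features, black points the 24 genes of smallest p, and the dashed line marks equal values. The 24 genes keep their sign in both panels, which their choice by p in these samples favours.

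Among the 12 named genes with the smallest p on the higher side, Rnf25 came first. It encodes a RING-type ubiquitin ligase and lies on chromosome 1. Its values were 12.79, 12.51, 12.65 and 12.53 in RCF 1 to RCF 4, against 11.15, 12.51 and 10.83 in control 1 to control 3. Control 2 lay among the RCF samples, and control 1 and control 3 lay apart below. The difference was 1.12 ± 0.25 (SE), 0.73 without RCF 1 and control 3, and 0.11 against control 2 alone. The adjusted p was 0.985 with limma.

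Several other genes on the higher side shared that order of samples. Alg8, a glucosyltransferase that builds the sugar donor for protein N-glycosylation, had 10.09, 9.98, 10.12 and 10.44 in RCF 1 to RCF 4, against 9.25, 10.02 and 9.08 in control 1 to control 3. Xndc1, named for a domain shared with the DNA repair protein Xrcc1, had 6.17, 6.18, 5.75 and 6.68 in RCF 1 to RCF 4, against 4.55, 6.41 and 4.15 in control 1 to control 3. Control 2 thus lay within the RCF range in both. Trappc3, a subunit of the TRAPP complexes that tether transport vesicles, had 11.68, 11.83, 11.86 and 12.17 in RCF 1 to RCF 4, against 11.37, 11.84 and 10.92 in control 1 to control 3. Lmbr1l, a membrane receptor for a lipocalin, had 11.26, 10.82, 10.90 and 11.37 in RCF 1 to RCF 4, against 10.41, 11.09 and 9.87 in control 1 to control 3. Ccdc71 had 12.29 to 12.51 in RCF, against 11.73, 12.28 and 11.48 in control 1 to control 3, but its second probe showed a difference of 0.01. Without RCF 1 and control 3 the differences were 0.54 for Alg8, 0.72 for Xndc1, 0.35 for Trappc3, 0.28 for Lmbr1l and 0.37 for Ccdc71, against 0.71, 1.16, 0.51, 0.63 and 0.56 with all samples. Without the 3 samples in doubt they were 0.41, 0.49, 0.24, 0.11 and 0.31 in the same order. In 9 of the 12 genes, control 2 showed under 50% of the difference that control 1 and control 3 showed.

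In 3 genes on the higher side control 2 showed over 50% of that difference, from 65.5% in Piga to 112% in Nt5dc1. Nt5dc1, a protein with a nucleotidase domain, had 6.92, 6.99, 7.10 and 7.34 in RCF 1 to RCF 4, against 6.78, 6.59 and 6.51 in control 1 to control 3. Its difference was 0.46 ± 0.13, and 0.46 and 0.36 without RCF 1 and control 3 and without the 3 samples in doubt. Laptm4a, a transmembrane protein of lysosomes, had 11.39, 11.64, 11.64 and 12.11 in RCF 1 to RCF 4, against 11.26, 11.35 and 11.18 in control 1 to control 3. Piga, the X-linked enzyme of the first step of glycosylphosphatidylinositol anchor synthesis, had 9.83, 9.73, 9.85 and 9.91 in RCF 1 to RCF 4, against 9.36, 9.56 and 9.48 in control 1 to control 3. The groups did not overlap in these 3 genes, and the highest Laptm4a value was that of RCF 4. Of the rest, Dus4l, a dihydrouridine synthase of transfer RNA, differed by 0.64 ± 0.17, Tmx1, a thioredoxin-like protein of the endoplasmic reticulum, by 0.49 ± 0.14, and Rraga, a GTPase that brings amino acid signals to the lysosomal mTORC1 complex, by 0.47 ± 0.15. Without the 3 samples in doubt these were 0.47, 0.28 and 0.48.

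On the lower side Dag1 had the smallest p of the named genes. It encodes dystroglycan, the cell-surface receptor that ties the extracellular matrix to the cytoskeleton and that astrocyte endfeet and some synapses use, and it lies on chromosome 9. Its values were 10.65, 10.52, 10.41 and 10.42 in RCF 1 to RCF 4, against 11.11, 10.79 and 11.21 in control 1 to control 3. Every RCF sample lay below every control sample. The difference was -0.54 ± 0.11, a ratio of 0.690, with a 95% interval of -0.76 to -0.31 and an adjusted p of 0.473 with limma. It was -0.50 ± 0.13 without RCF 1 and control 3 and -0.49 ± 0.14 when RCF 4 was left out too.

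In Dag1, control 2 showed 44.3% of the difference that control 1 and control 3 showed. Of 31 measured members of the list for the dystroglycan complex and its glycosylation, 13 were higher and 18 lower by value, with a median of -0.036 against -0.035 for all features. The list was drawn up with the Dag1 result known, and Dag1 was its only member with an unadjusted p under 0.05. Aqp4, the water channel of astrocyte endfeet and the other member whose groups did not overlap, had 10.80, 11.11, 10.90 and 10.54 in RCF 1 to RCF 4, against 11.65, 11.20 and 11.30 in control 1 to control 3. Its difference was -0.54 ± 0.31, while a second Aqp4 probe differed by 0.089.

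Gatad2b, Epc2 and Rbm15b followed on the lower side. Gatad2b, a subunit of the NuRD chromatin-remodelling complex, had 9.16, 9.01, 9.20 and 9.13 in RCF 1 to RCF 4, against 9.98, 9.48 and 9.88 in control 1 to control 3. Epc2, an enhancer of polycomb protein, had 10.22, 10.19, 10.36 and 10.27 in RCF 1 to RCF 4, against 10.67, 10.59 and 10.86 in control 1 to control 3. Rbm15b, an adaptor of the complex that methylates adenosine in RNA, had 9.76, 9.43, 9.54 and 9.48 in RCF 1 to RCF 4, against 10.36, 9.94 and 10.07 in control 1 to control 3. The groups did not overlap in these 3 genes, whose differences were -0.66 ± 0.16, -0.45 ± 0.11 and -0.57 ± 0.15, and -0.63, -0.36 and -0.67 without the 3 samples in doubt. A second probe of Epc2 differed the other way, by 0.23. Kmt2d, a histone H3 lysine methyltransferase, had 7.59, 7.18, 7.07 and 7.22 in RCF 1 to RCF 4, against 8.09, 7.36 and 8.37 in control 1 to control 3, so control 2 lay among the RCF samples there.

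The remaining lower genes were of mixed function. Fzd4, a Wnt and norrin receptor of brain endothelium, differed by -0.52 ± 0.14, and Slc39a1, a zinc importer, by -0.40 ± 0.11. Rnf41, a RING-type ligase that acts on ErbB receptors, differed by -0.49 ± 0.13, and Azin1, which protects ornithine decarboxylase and so polyamine synthesis, by -0.45 ± 0.14. Another probe of each of these last 2 genes differed the other way, by 0.25 and 0.17. Plagl2, a zinc finger transcription factor, differed by -0.45 ± 0.14, and Tdpoz7, a member of a family of near-identical genes whose copies 1 probe may not separate, by -0.52 ± 0.15. Flywch1, a zinc finger protein, had 11.53, 11.65, 11.40 and 10.60 in RCF 1 to RCF 4, against 12.46, 11.95 and 12.54 in control 1 to control 3. Its difference of -1.02 ± 0.32 was the widest of these 12 genes, and it came to -0.68 without the 3 samples in doubt, RCF 4 being the lowest. In all 24 genes the difference had 1 sign in both rows of the slide, as against 35.4% of all features, but genes chosen by p favour such agreement.

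**Figure D3:**
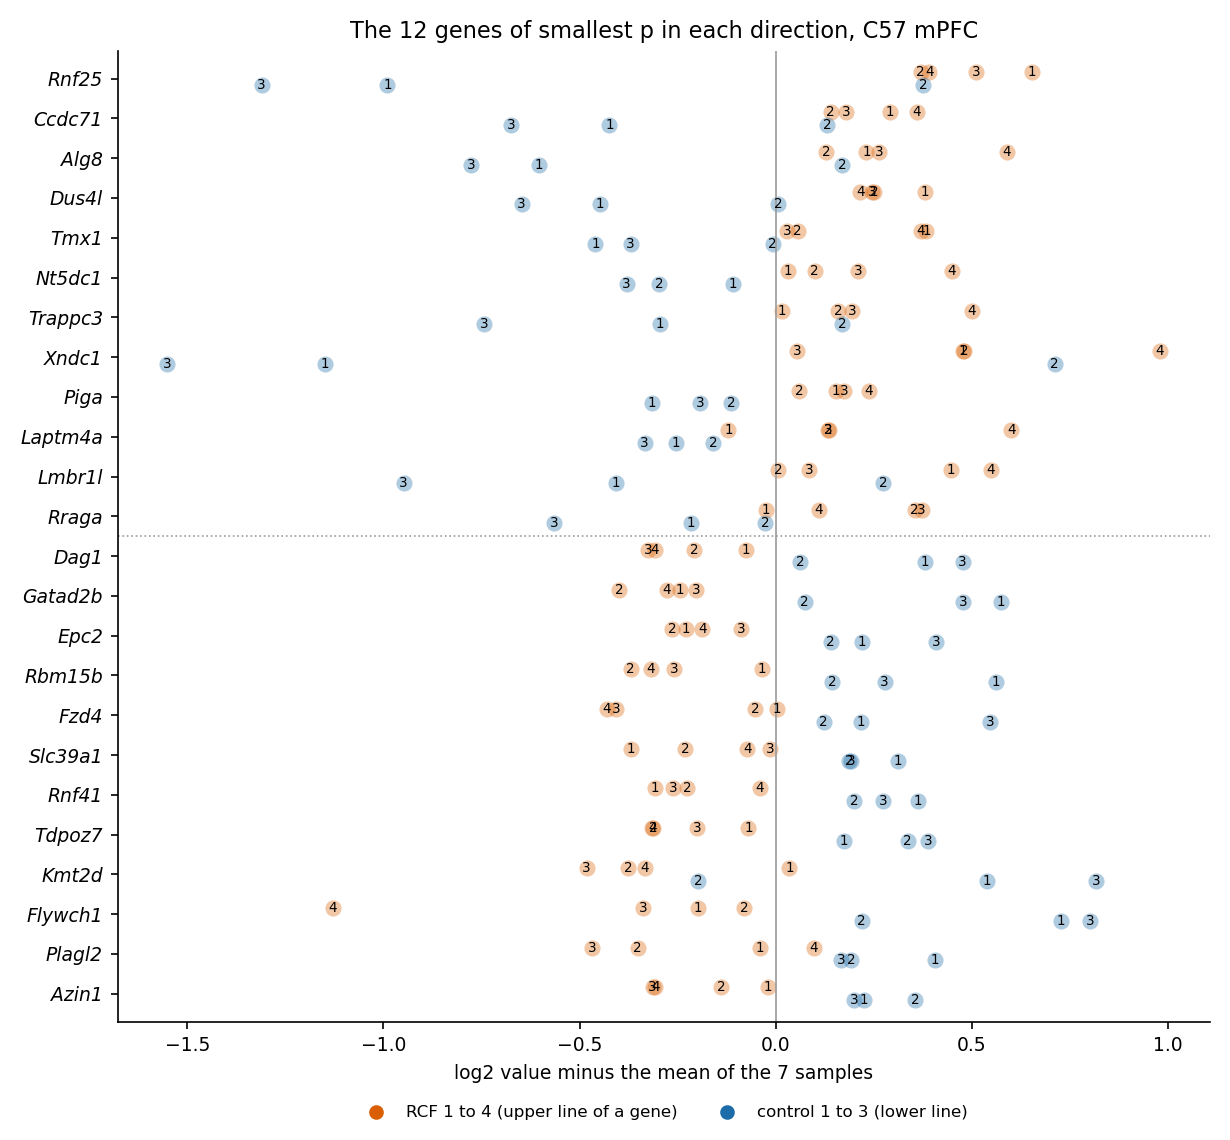
Log2 values of the 24 genes, each minus the mean of the 7 samples, with the sample number inside each point, RCF in orange on the upper line and control in blue on the lower line of a gene. The 12 genes above the dotted line were higher in RCF and the 12 below it lower; in Rnf25, Alg8, Xndc1, Trappc3 and Lmbr1l, control 2 lies among the RCF points.

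The other 24 arrays of the series show where the C57 mPFC groups stood. Rnf25 ran from 11.77 to 13.10 on those arrays, a range that held all 4 RCF samples and control 2 but neither control 1 nor control 3. Dag1 ran from 10.19 to 10.94 on them, a range that again held the 4 RCF samples and control 2, while control 1 and control 3 lay above it. In other genes the RCF samples lay outside. For Gatad2b, RCF 1 to RCF 4 were at 9.01 to 9.20, below the lowest of those arrays at 9.21. For Tdpoz7 they were at 6.90 to 7.14, below the lowest at 7.28, and the controls lay within the range in both genes. Rnf41 was below the lowest, 8.03, in RCF 1 to RCF 3. Of the 24 genes, 10 had control 1 and control 3 outside all of the other 29 arrays: Rnf25, Ccdc71, Alg8, Tmx1, Trappc3, Xndc1, Laptm4a and Lmbr1l below them, and Dag1 and Kmt2d above them. Over all 22469 features this was so for 110 (0.490%), and for other pairs of the 7 samples for 55 to 703 features. The 24 genes were chosen by p in these same samples, which favours controls that lie far out. Their count is thus no test against that share.

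Both of these controls lay in slide column 1. The other 6 arrays of column 1 had Rnf25 at 12.47 and 12.49 in C57 NAc controls, at 11.77 and 12.24 in DBA mPFC controls and at 13.09 and 12.62 in DBA NAc controls. Control 1 and control 3 of the C57 mPFC were thus the lowest of column 1, although 11.77 was also the lowest of the other 24 arrays. The array at 11.77 was control 1 of the DBA mPFC, whose strain score (5.35) and Xist level (3.70) lay across the midpoints. For Gatad2b, the 2 C57 NAc control arrays of column 1 were at 10.48 and 10.47, above the 2 of column 2 at 9.65 and 9.54. Those of column 1 were near-duplicates counted as 1 sample, as were those of column 2. The arrays of column 1 had tissue scores of -1.65 and -1.59, on the cortical side, against 3.47 and 3.42 in those of column 2. Slide column and tissue score thus cannot be told apart in these NAc controls. A fit of all groups with slide column as a block, in which only 2 DBA NAc arrays lie in a column of the other treatment, gave 0 features past the adjusted threshold.

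**Figure D4:**
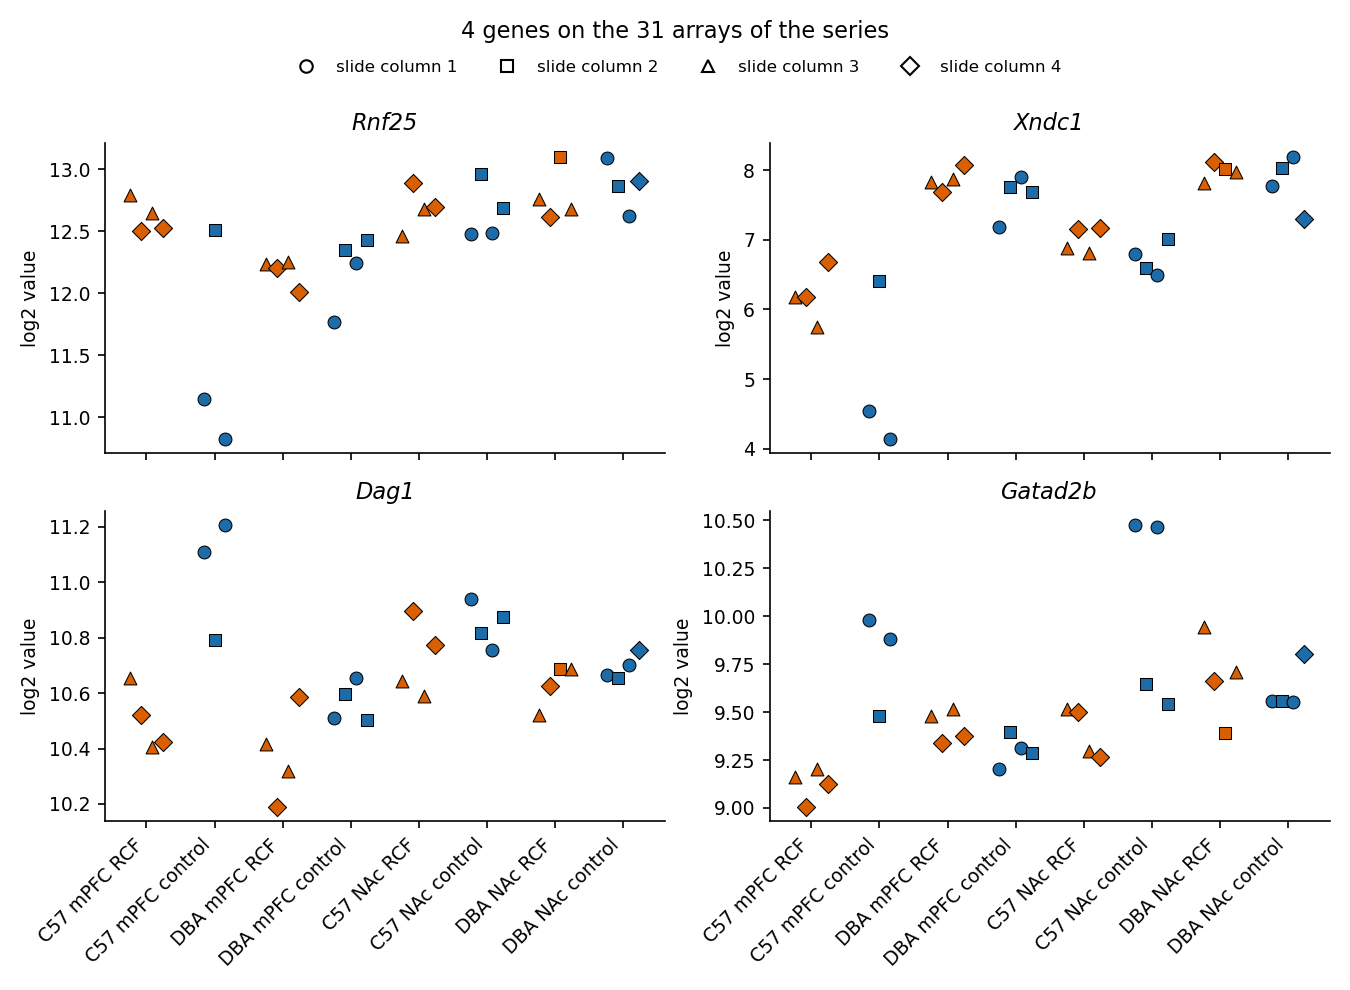
Log2 values of Rnf25, Xndc1, Dag1 and Gatad2b on all 31 arrays by group, RCF in orange and control in blue, with the marker shape for the slide column. In the C57 mPFC the controls of column 1 (circles) lie at 11.15 and 10.83 for Rnf25 and at 11.11 and 11.21 for Dag1, outside the other arrays.

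Leaving out RCF 1 and control 3 put other genes in front. Psmd14, a deubiquitinase of the proteasome lid, had 11.46, 11.62 and 11.79 in RCF 2 to RCF 4, against 11.31 and 10.94 in control 1 and control 2, a difference of 0.50. Cibar1, a protein of the ciliary base, had 12.32, 12.47 and 12.44 in RCF 2 to RCF 4, against 12.09 and 11.90 in control 1 and control 2. Tmem35a, a chaperone of nicotinic acetylcholine receptors, had 12.44, 12.94 and 13.60 in RCF 2 to RCF 4, against 12.33 and 12.39 in control 1 and control 2. RCF 4 was the highest of the 3 RCF samples for Psmd14 and Tmem35a, and without it the differences were 0.42 and 0.33. Tmem251 and Ttc30a2 completed the higher side, with differences of 0.42 and 0.55, beside Nt5dc1, Laptm4a and Btg2.

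On the lower side of that comparison were Dag1, Rbm15b and Plagl2 again, with Plin2, a coat protein of lipid droplets, at -0.65, Ftdc2 at -0.68, the olfactory receptor gene Olfr1395 at -0.85 and Cyp2a4, a cytochrome P450, at -2.14. Cyp2a4 had 5.31, 5.49 and 5.93 in RCF 2 to RCF 4, against 8.62 and 6.82 in control 1 and control 2. Mrpl37, a protein of the mitochondrial ribosome, differed by -3.76, but this rested on 1 array: its value was 16.55 in control 1 and 9.01 to 9.49 in the other 6 samples. None of the 16 genes passed the adjusted threshold in that comparison.

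Gene lists gave the same account for cell types and pathways: no member of any list passed the adjusted threshold with all samples weighted alike. The counts below are by value and are read against all features, of which 41.5% were higher in RCF and whose median was -0.035. Members whose groups did not overlap are named by rule. Over all features the groups did not overlap in 665 (2.96%), so such a member is no result by itself. Striatal projection neuron genes were higher in 7 and lower in 15 of 22, and cortical excitatory neuron genes higher in 5 and lower in 12 of 17. The striatal median was -0.10, and 0.24 without RCF 1 and control 3. The members of smallest p were Rasd2 and Pde10a, both at -0.39, and Tle4 and Rorb at -0.30 and -0.22, with a second Tle4 probe at 0.015. Interneuron genes were higher in 10 and lower in 8 of 18. Pvalb, the calcium buffer of fast-spiking interneurons, had 12.44, 13.27, 12.89 and 10.79 in RCF 1 to RCF 4, against 12.97, 13.40 and 12.13 in control 1 to control 3, so that RCF 4 alone lay below the controls.

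Astrocyte genes were higher in 4 and lower in 16 of 20 (20.0% higher), with a median of -0.18. Glul, the glutamine synthetase of astrocytes, had 15.40, 15.46, 15.35 and 15.06 in RCF 1 to RCF 4, against 15.72, 15.55 and 15.57 in control 1 to control 3. Slc1a2, their main glutamate transporter, ran from 12.29 to 13.13 in the RCF samples, against 13.10 to 13.42 in the controls, with overlap. Glul and the brighter Aqp4 probe had no overlap between groups, with RCF 4 lowest in both, as it was for Slc1a2. The list median was -0.063 without RCF 4 and -0.12 without the 3 samples in doubt.

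Microglial genes were higher in 4 and lower in 18 of 22 (18.2% higher), with a median of -0.074 and -0.049 without the 3 samples in doubt. Laptm5, a lysosomal protein of haematopoietic cells, had 8.94, 8.80, 8.77 and 8.87 in RCF 1 to RCF 4, against 9.07, 9.19 and 9.36 in control 1 to control 3. C1qc, a chain of complement C1q, had 11.77, 11.83, 11.81 and 11.65 in RCF 1 to RCF 4, against 12.00, 11.97 and 11.98 in control 1 to control 3. In both genes every RCF sample lay below every control sample, by -0.36 ± 0.18 and -0.22 ± 0.20. Tmem119, a microglial surface protein, differed by -0.24 ± 0.12 with overlapping groups.

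Oligodendrocyte and myelin genes were higher in 17 and lower in 6 of 23 (73.9% higher), with a median of 0.097 that was -0.070 without the 3 samples in doubt. Mog, a myelin surface protein, had 9.60, 9.70, 9.54 and 9.56 in RCF 1 to RCF 4, against 9.30, 9.49 and 9.47 in control 1 to control 3, without overlap, while Mbp, the myelin basic protein, differed by -0.48 ± 0.27 and Sox10, the lineage transcription factor, by -0.24 ± 0.29. The list's mean per sample was highest in RCF 1 at 12.05, control 3 at 11.88 and RCF 4 at 11.84, the samples that stood apart by region, and 11.26 to 11.47 in the other 4. Endothelial, mural and meningeal genes were higher in 10 and lower in 18 of 28, among them the meningeal matrix genes Lum and Col1a2, which had no overlap and differed by -0.57 ± 0.52 and -0.34 ± 0.38. Kcnj8, a potassium channel of pericytes, differed by 0.33 ± 0.21 and Eng, an endothelial co-receptor of the TGF-beta family, by -0.26 ± 0.16. Choroid plexus genes were lower in 6 of 8, with Prlr, the prolactin receptor, lower in every RCF sample than in any control by -0.19 ± 0.39, Kcnj13 at 0.21 ± 0.31 and Tmem72 at -0.17 ± 0.28. Blood cell genes were lower in 7 of 9, with the globin genes Hba-a2 and Hbb-bt at -0.28 ± 0.32 and -0.22 ± 0.43. Perineuronal net and matrix genes were higher in 7 and lower in 5 of 12, with Tnr at -0.28 ± 0.20 and Bcan at -0.18 ± 0.16.

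Genes induced by neuronal activity were higher in 5 and lower in 20 of 25 (20.0% higher), with a median of -0.16 that was -0.22 without the 3 samples in doubt. Dusp4, a phosphatase that ends MAP kinase signals, had 6.90, 6.52, 6.40 and 6.89 in RCF 1 to RCF 4, against 7.07, 7.43 and 7.11 in control 1 to control 3. Per1, a clock gene that also responds to glucocorticoids, had 13.83, 13.91, 13.76 and 13.79 in RCF 1 to RCF 4, against 14.21, 14.01 and 14.06 in control 1 to control 3. Groups did not overlap in either gene, whose differences were -0.53 ± 0.25 and -0.27 ± 0.20. Btg2, an antiproliferative immediate-early gene, went the other way, with 8.71, 9.46, 9.54 and 11.21 in RCF 1 to RCF 4, against 8.98, 8.49 and 8.37 in control 1 to control 3. RCF 4 was the highest Btg2 value, and the difference of 1.12 ± 0.40 came to 0.76 without the 3 samples in doubt.

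Stress axis and glucocorticoid-response genes were higher in 9 and lower in 19 of 28, with a median of -0.12 that was -0.024 without the 3 samples in doubt. Mc4r, a melanocortin receptor, differed by -0.47 ± 0.28 and Pomc, the precursor of corticotropin and endorphin, by 0.24 ± 0.15. Nr3c1, Fkbp5, Crhr1 and Bdnf are given for their known roles in stress and plasticity and were added after their values were seen. Nr3c1, the glucocorticoid receptor, had 12.85, 13.25, 13.18 and 13.03 in RCF 1 to RCF 4, against 12.93, 13.42 and 13.07 in control 1 to control 3, a difference of -0.063 with a 95% interval of -0.31 to 0.19. Fkbp5, a chaperone that restrains that receptor, had 11.29, 10.52, 10.86 and 11.09 in RCF 1 to RCF 4, against 10.73, 10.702 and 11.54 in control 1 to control 3, an interval of -0.62 to 0.52. Crhr1, a receptor for corticotropin-releasing hormone, had an interval of -0.80 to 0.88. Groups overlapped in all 3, and the Fkbp5 values were highest in the 2 samples with striatal markers.

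Neurotrophin-related genes were higher in 5 and lower in 10 of 15, with the neuregulins Nrg3 and Nrg1 at -0.32 ± 0.30 and -0.16 ± 0.15. Bdnf, the brain-derived neurotrophic factor, had 8.58, 10.69, 10.49 and 10.16 in RCF 1 to RCF 4, against 10.36, 10.51 and 9.09 in control 1 to control 3. The samples with striatal markers were the lowest of each group, and the 95% interval of the difference was -1.68 to 1.66. Chromatin modifiers were higher in 15 and lower in 22 of 37, with Tet3, an enzyme that oxidises methylcytosine, at -0.28 ± 0.13 and Hdac2, a histone deacetylase, at 0.37 ± 0.20.

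Transmitter systems showed values in both directions. Ionotropic and metabotropic glutamate receptor genes were higher in 11 and lower in 13 of 24, with the kainate receptor subunit Grik4 at 0.34 ± 0.16 and the AMPA receptor subunit Gria1 at 0.27 ± 0.19. GABA receptor genes were higher in 5 and lower in 9 of 14. Gabbr1, a subunit of the metabotropic GABA receptor, had 14.49, 14.53, 14.46 and 14.27 in RCF 1 to RCF 4, against 14.62, 14.63 and 14.80 in control 1 to control 3, with every RCF sample below every control sample by its brightest probe, whereas another Gabbr1 probe differed by 0.27. Gabra3, a subunit of the ionotropic receptor, differed by 0.50 ± 0.30, and by -0.48 on its second probe. The dopamine and noradrenaline list was higher in 7 and lower in 10 of 17, the serotonin list higher in 4 and lower in 3 of 7, and the opioid and endocannabinoid list higher in 7 and lower in 10 of 17. Gch1, which makes a cofactor of dopamine synthesis, differed by -0.20 ± 0.16, and Cnr1, the cannabinoid receptor, by 0.40 ± 0.27. Of the oxytocin and vasopressin genes 3 of 4 were higher. Oxtr, the oxytocin receptor, had 8.83, 8.34, 8.45 and 11.19 in RCF 1 to RCF 4, against 8.33, 8.33 and 9.41 in control 1 to control 3, so RCF 4 stood alone above the rest. Htr2c, a serotonin receptor, had 12.98, 10.91, 11.47 and 13.68 in RCF 1 to RCF 4, against 10.43, 11.12 and 13.20 in control 1 to control 3, highest in the samples that stood apart by region by its brighter probe. Lnpep, the peptidase that cleaves oxytocin, differed by -0.21 ± 0.21 and the serotonin receptor Htr6 by -0.42 ± 0.33.

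Cytosolic ribosomal protein genes were higher in 13 and lower in 65 of 78 (16.7% higher) and oxidative phosphorylation subunits higher in 19 and lower in 56 of 75 (25.3% higher). Their medians were -0.078 and -0.047, but 0.027 and 0.036 under quantile normalization and 0.12 and 0.15 without the 3 samples in doubt. The mean of the ribosomal list was 15.78, 15.76, 15.74 and 15.32 in RCF 1 to RCF 4, against 15.62, 15.63 and 15.92 in control 1 to control 3, with RCF 4 below all others. Rps21 differed by -0.26 ± 0.22, and the subunits Ndufs1 and Atp5e by 0.12 ± 0.084 and -0.25 ± 0.18. RING-type ubiquitin ligases, to which Rnf25 and Rnf41 belong, were higher in 25 and lower in 29 of 54, and Rnf40 and Rnf121 were lower in every RCF sample than in any control, by -0.26 ± 0.13 and -0.13 ± 0.12. Imprinted genes were higher in 15 and lower in 12 of 27, with Cdkn1c at -0.58 ± 0.47 and H19 at -0.22 ± 0.16.

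The title of the series names Xlr4, and its X-linked family was measured in the deposited value table through 3 members whose copies 1 probe may not separate. Xlr3b had 9.25, 8.76, 8.42 and 9.70 in RCF 1 to RCF 4, against 8.85, 7.11 and 9.29 in control 1 to control 3. Xlr4a had 6.81, 6.71, 6.10 and 7.66 in RCF 1 to RCF 4, against 7.09, 4.87 and 7.08 in control 1 to control 3. Xlr4b had 5.91, 5.56, 4.85 and 7.16 in RCF 1 to RCF 4, against 6.49, 4.41 and 6.20 in control 1 to control 3. Control 2 was the lowest sample and RCF 4 the highest in all 3, and the differences were 0.62 ± 0.49, 0.47 ± 0.69 and 0.17 ± 0.64. Without control 2 all 3 signs turned, to -0.039, -0.27 and -0.48, and without RCF 1 and control 3 the differences were 0.98, 0.84 and 0.41. A second Xlr3b probe differed by 0.83 ± 0.51 with all samples. Outside that table, Xlr was well above background on every array and differed by -0.036 ± 0.22. Xlr3a and Xlr5a differed by 1.02 ± 0.54 and 0.55 ± 0.47, but were well above background on only 1 RCF array and no control array.

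**Figure D5:**
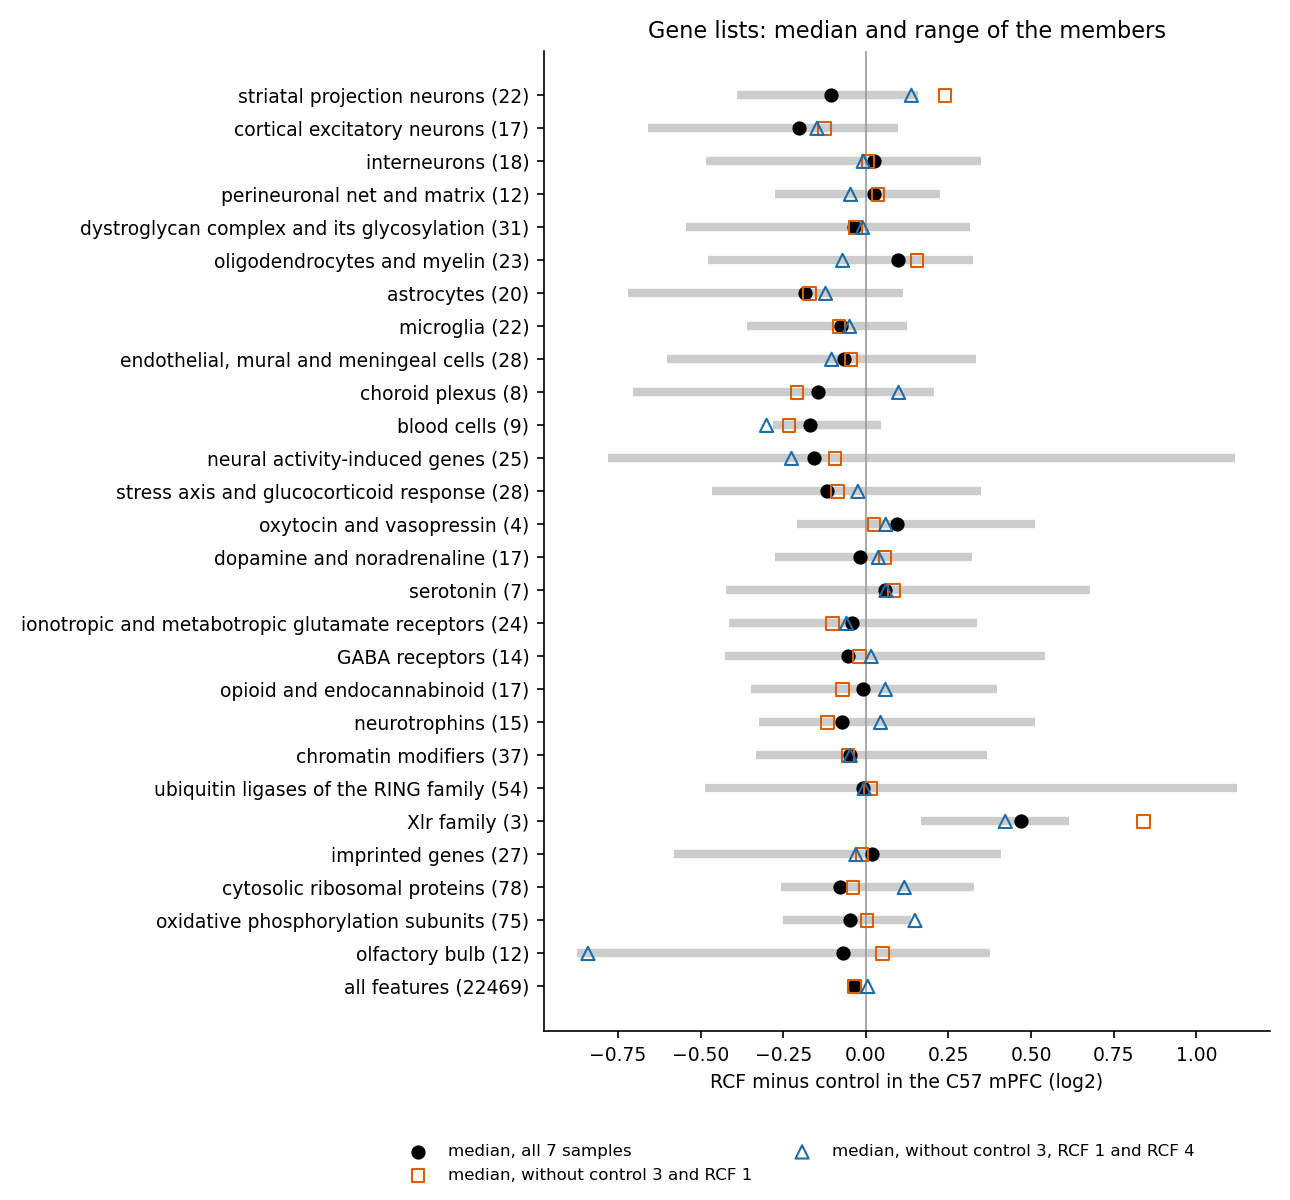
Median RCF minus control (log2) of the members of each list, with the number measured in brackets, in all 7 samples (black), without RCF 1 and control 3 (orange squares) and without RCF 1, RCF 4 and control 3 (blue triangles). Grey bars run from the lowest to the highest member in all 7 samples; the astrocyte median is -0.18 and that of all features -0.035.

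Whether the response of the C57 mPFC differed from that of the DBA mPFC was tested as an interaction. With limma, 0 of 22469 features (0%) passed and 268 (1.19%) had an unadjusted p under 0.05, while 1 passed without control 2. Control 1 of the DBA mPFC, 1 of 3 control samples there after averaging, had a strain score of 5.35 and an Xist level of 3.70, both across the midpoints, and without it 0 passed and 196 had an unadjusted p under 0.05. Rnf41 had the smallest interaction p, with -0.49 in the C57 mPFC and 0.22 in the DBA mPFC and an interaction of -0.71 ± 0.20, which was -0.62 without that DBA sample. Zmynd8, a chromatin reader, differed by 0.37 in the C57 mPFC and -0.69 in the DBA mPFC, and Pfn1, the actin-binding profilin, by -0.39 and 0.94. Without that DBA sample the DBA differences were -0.39 for Zmynd8 and 0.43 for Pfn1. The other 2 probes of Zmynd8 differed the other way in the C57 mPFC, by -0.32 and -0.22. Ccdc47, a protein of the endoplasmic reticulum, and Ceacam2, a cell adhesion molecule, were the other 2 of the 5 smallest p, with interactions of 0.60 ± 0.18 and 1.16 ± 0.34, and 1 of 3 Ccdc47 probes was at -0.13 in the C57 mPFC. Among the 24 genes of smallest p in the C57 mPFC, 13 had the same sign in the DBA mPFC, where no absolute difference exceeded 0.265, and without that DBA sample 14 had the same sign and the widest difference was 0.450. In the DBA mPFC, 350 of all features (1.56%) had an unadjusted p under 0.05. Dag1 was at -0.19 ± 0.12 and Rnf25 at 0.021 ± 0.27 in the DBA mPFC, and at -0.22 and -0.16 without that DBA sample.

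The interaction of tissue and treatment within C57 also gave 0 features past the threshold (0%), with 998 (4.44%) at an unadjusted p under 0.05, while 1 passed without control 2 and 4 without the 6 samples across a marker midpoint. The 5 named genes of smallest p were Rergl, Nfia, Sp6, Shpk and Pds5a, which differed by 0.35, -0.12, -0.084, -0.31 and -0.099 in the C57 mPFC and by -1.28, -1.46, -1.33, 0.85 and -0.94 in the C57 NAc. The wider difference was thus in the NAc for each, where control 1 and control 3, averaged as 1 sample, and RCF 1 lay on the cortical side of the tissue midpoint. Leaving out these NAc controls left 1 control sample there, whose spread was taken from the rest of the fit, and 3 features then passed. The NAc differences of the 5 genes were -1.15, -1.10, -1.03, 0.82 and -0.65 in that fit. Gatad2b, Epc2 and Rbm15b were at -0.64, -0.45 and -0.53 in the C57 NAc, and at -0.20, -0.39 and -0.26 without these controls. Dag1 was at -0.12 ± 0.12 there with all samples.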

How the data were processed

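Total RNA of 7 C57 mPFC samples was read on 1-colour arrays. The authors' scanner files give spot intensity values (62976 spots an array) from Agilent Feature Extraction 10.7.3.1 per the file headers. The deposited value table holds log2 values of 30067 probes with 1 shared 75th percentile (11.43), and limma is named in the submitters' processing notes without its use. Value columns were matched to scanner files by correlation. For 29 of 31 samples the equal file was listed under another sample, in 27 of them under another group, and titles of the value columns were followed. The file equal to RCF 1 was listed under a C57 mPFC control. Those equal to RCF 2, RCF 3, RCF 4 and control 3 were listed under C57 NAc controls. Probes were named through RefSeq accessions (18965 of 30067 probes) and the brightest probe was kept per gene, which left 22469 features. Near-duplicate arrays in 4 pairs of other groups were averaged, by a limit of 2 on the ratio of spreads set after the ratios were seen. limma 3.58.1 in R 4.3.3 fitted 8 group means to 27 samples with an intensity trend and Benjamini-Hochberg adjustment over all features, threshold 0.05. It was tested on simulated data. Figures used Python 3.11.15, pandas 2.3.3 and matplotlib 3.10.9. The text names the 12 smallest p in each direction, the 8 in each without RCF 1 and control 3, in each list the 2 smallest p and every member whose groups do not overlap, the Xlr family, and 5 genes per interaction, except some genes that are not reported here. Members and lists were chosen with earlier results of these data known. Alternatives were other sample sets, weights, normalizations and probe sets. Precision is limited by the number of arrays.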

Additional observations from a re-analysis of the deposited data

Results flagged for a closer look

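Of 63 values tested in the 4 RCF samples (28 list means and 35 genes), 2 had 1 sample whose gap to the nearest other exceeded Dixon's 95% critical value, and chance marks about 1 in 20. The cytosolic ribosomal protein list had a mean of 15.32 in RCF 4 against 15.74 to 15.78 in the others. The endothelial, mural and meningeal list had a mean of 8.97 in RCF 3 against 9.22 to 9.26 in the others. The olfactory bulb list, with a mean of 10.73 in RCF 4 against 8.59 to 8.83 in the others, was drawn up because such genes were high in RCF 4, so its gap only restates that choice.

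Of 25614 probes outside the deposited value table, 8 were well above background on all 4 RCF arrays and on no control array, and 0 on all 3 control arrays and no RCF array. Among the 8, 3 probes have a gene name. Cd46, a complement regulator, was at 4.11, 4.75, 4.16 and 4.38 in RCF 1 to RCF 4, against 3.57, 3.38 and 3.44 in control 1 to control 3, at least 1.56-fold higher. Ska3, a protein of the kinetochore, had 3.78, 4.87, 4.58 and 5.42 in RCF 1 to RCF 4. Control 1 to control 3 had 3.62, 3.55 and 3.52, and the Ska3 mean was at least 1.94-fold higher in RCF. Trnt1, the enzyme that adds CCA to transfer RNA, had 4.04, 5.14, 4.21 and 4.05 in RCF 1 to RCF 4. Control 1 to control 3 had 2.72, 3.84 and 2.15, and the Trnt1 mean was at least 1.49-fold higher in RCF. A bound sets the RCF mean against the lowest signal well above background on each control array, or the probe's own where higher. It carries no sampling error. The probes were chosen for detection in RCF alone, so a higher RCF mean largely follows from that choice. Where tested in the wider probe set, the adjusted p was 1 with limma. All 3 genes are dim, and the values were not compared with other probes.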

How the results depend on the processing

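In the comparison that starts from all samples, the count of 0 features past adjusted p 0.05 in the C57 mPFC held in 22 of its 25 alternatives, the exceptions being array weights, the listed scanner files and the fit without control 2. It was 185 (63 higher, 122 lower) with array weights, which gave RCF 3 a weight of 8.90 and RCF 4 of 0.202. It was 6093 with scanner files under the samples they are listed with. The files listed as C57 mPFC RCF equalled value columns titled DBA mPFC, on slide 2. Those listed as C57 mPFC control equalled columns titled C57 mPFC, on slide 1. Strain and slide thus differed between the 2 groups of that alternative. Leaving out 1 sample gave 0 to 11, the 11 without control 2 (9 higher, 2 lower), among them Rnf25, Xndc1, Alg8 and Dag1; 3 features were shared with those called by array weights. Features with an unadjusted p under 0.05 numbered 285 (without RCF 4) to 1234 (without RCF 2), against 419 with all samples. Without RCF 1 and control 3 the count was 0 to 3 on leaving out a further sample, the 3 without control 2. The interaction with strain gave 0 to 1 and that with tissue 0 to 1 on leaving out a sample, the 1 without control 2 in both; the one with tissue also gave 4 without the 6 samples whose markers lay across a midpoint and 3 with normexp. Whether equal replicate numbers paired samples could not be decided. Deviations of equal numbers correlated at -0.60, 0.39 and -0.43, and a fit with the replicate number as a block gave 0 features. The strongest correlation, 0.69, was of RCF 1 with control 3, the samples with striatal markers, so region and pairing cannot be told apart by it. Slide column as a block could not be fitted to the 7 arrays, because each column held 1 treatment there. Added after seeing the data, slide row as a block gave 0, and slide column as a block in the fit of all groups gave 0, with 1538 at an unadjusted p under 0.05. The 35 genes named for the smallest p with and without RCF 1 and control 3 kept their sign on leaving out any 1 of the 7. They also kept it without the 2 or the 3 samples in doubt, under quantile normalization, the tissue covariate and the block. Genes chosen by p in these same samples favour such agreement. Without control 2, 7 of the genes passed the threshold. Why the counts moved was not tested.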

Other observations

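An absolute difference over 1 was found in 24 features, 13 higher and 11 lower, and these were looked at after their values were seen. In 12 of them 1 sample lay more than 2 from all the other 6, which was RCF 2 in 7. Sec24d, a coat protein of transport vesicles, was at 7.79, 15.50, 8.58 and 9.61 in RCF 1 to RCF 4, against 8.39, 8.04 and 8.25 in control 1 to control 3. Sall3, Zdbf2, Spopl and Ccdc71l likewise stood at 15.90, 15.06, 14.78 and 14.13 in RCF 2 and at 6.65 to 10.39 in the other 6 samples. Myl1, a myosin light chain of muscle, was at 13.11 in control 2 and at 4.45 to 6.92 in the others.

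Differences that did not rest on 1 such array included Pde5a, a phosphodiesterase of cyclic GMP. It was at 8.69, 7.69, 8.21 and 9.43 in RCF 1 to RCF 4, against 8.94, 10.36 and 10.77 in control 1 to control 3, a difference of -1.52 ± 0.66. Creg2, a secreted glycoprotein of brain, was at 11.96, 13.01, 13.22 and 12.97 in RCF 1 to RCF 4, against 11.36, 13.07 and 10.35 in control 1 to control 3. As for Rnf25, control 2 lay among the RCF samples and control 1 and control 3 below them. Unlike in Rnf25, RCF 1 was the lowest RCF sample.

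Among genes outside the deposited value table, 86 list members were on the array and 32 were well above background on all 7 arrays. Drd2, a dopamine receptor of striatal neurons, was at 7.43, 5.25, 5.28 and 5.08 in RCF 1 to RCF 4, against 5.02, 5.77 and 7.80 in control 1 to control 3. S100a9, a calcium-binding protein of neutrophils, was at 9.11 in control 1 and 5.50 to 6.75 in the other 6 samples.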
